A study of Ambystoma mexicanum with 5 samples.

Results

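*Thbs2* (AMEX60DD034565, THBS2 in the study's lists) and *Thbs3* (AMEX60DD014849, THBS3) are 2 of the 99088 genes counted in dermal cells of the uninjured axolotl forelimb. They were picked by identifier as thrombospondins whose mRNA levels differed in opposite directions between posterior and anterior cells. That difference chose them, so it is given here as a description and was not tested again. The mRNA was counted in 3 posterior and 2 anterior libraries of lower-arm skin, and each library pooled 8 axolotls (16 lower arms) of 12 cm. All animals carried a mouse *Prrx1* enhancer construct, Mmu.Prrx1:TFPnls-T2A-ERT2-Cre-ERT2, beside the reporter Caggs:loxP-GFP-loxP-mCherry, and had been given 4-hydroxytamoxifen as embryos, which leaves connective tissue cells mCherry-positive for life. The skin was split into a posterior and an anterior piece with a gap between them, and mCherry-positive cells were sorted from each piece without amputation. The *Prrx1* enhancer and the sort define the cells, so that other cell types enter only if they pass the gate. Pooling means that a replicate is a group of animals, and the spread between individual animals was not measured.

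Thrombospondins are secreted, calcium-binding glycoproteins that join into multimers and sit between matrix and cell surface, where they modulate adhesion and signalling more than they bear load. *Thbs1* and *Thbs2* form trimers and carry type 1 repeats, the modules best known for restraining blood vessel growth. *Thbs3*, *Thbs4* and *Comp* form pentamers and lack type 1 repeats. In mice, fibroblasts of the skin make *Thbs2*, whose loss alters collagen fibrils and increases vessel density, and *Thbs3* takes part in the timing of skeletal growth. Only *Thbs2* and *Thbs3* carry a symbol in the study's gene lists for these libraries, and *Thbs1*, *Thbs4* and *Comp* were not analysed here.

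*Thbs2* had its higher level in anterior cells. Its level was 293.2, 326.2 and 311.4 CPM (counts-per-million, the count scaled to library size) in posterior replicates 1, 2 and 3, against 785.8 and 952.9 CPM in anterior replicates 1 and 2. The lowest anterior library stood 2.41 times above the highest posterior library, so that the positions did not overlap. The means were 310 ± 16.5 CPM (SD, n = 3) in posterior and 869 ± 118 CPM (SD, n = 2) in anterior cells, and the log2 fold change, posterior over anterior, was -1.49 with a standard error (SE) of 0.12. The underlying counts were 17199, 19101 and 16745 in the posterior libraries and 35230 and 48658 in the anterior libraries. Counting error alone would give 0.453% to 0.773% at this depth, whereas the libraries of a position varied with a coefficient of variation of 5.33% in posterior and 13.6% in anterior cells. The spread between libraries was thus wider than counting error, which takes each read as a separate molecule.

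*Thbs3* had its higher level in posterior cells. Its level was 86.18, 123.5 and 122.8 CPM in posterior replicates 1, 2 and 3, against 32.19 and 39.01 CPM in anterior replicates 1 and 2. Posterior replicate 1 was the lowest posterior library, yet it was 2.21 times above the highest anterior library. The means were 111 ± 21.4 CPM (SD, n = 3) in posterior and 35.6 ± 4.82 CPM (SD, n = 2) in anterior cells, and the log2 fold change was 1.64 (SE 0.20). The counts were 5056, 7234 and 6603 in the posterior libraries and 1443 and 1992 in the anterior libraries, and counting error was 1.18% to 2.63%. The coefficient of variation was 19.3% in posterior and 13.6% in anterior cells. Of all 20875 genes tested, 24.1% had positions that did not overlap, so that the order of the libraries is common and does not set the 2 genes apart. Both genes were past a false-discovery rate of 0.01 (as were 0.254% of the genes tested, and 0.608% at a rate of 0.05), from which nothing is read because this contrast chose them. Neither passed when any of the 3 posterior libraries was left out. Calls over all genes then fell from 53 to 5, 2 and 3 without posterior replicate 1, 2 and 3. The loss of calls was thus not particular to these genes, nor to those in the lists below.

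**Figure D1:**
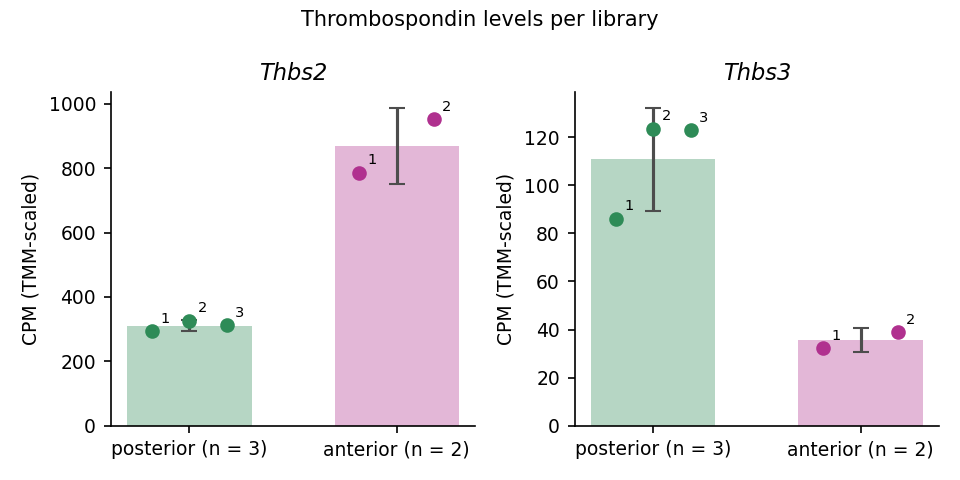
Level of *Thbs2* (left) and *Thbs3* (right) in CPM, scaled by the TMM method, in posterior (left bar, n = 3) and anterior (right bar, n = 2) libraries. Bars are means, error bars are the SD and numbered points are the replicates, and for both genes every library of one position lies clear of every library of the other.

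The 2 genes also differed in abundance and in their spread between replicates. *Thbs2* was an abundant transcript at either position: it ranked 411th of 20875 genes tested by mean CPM in posterior and 194th in anterior cells, the 98.0th and 99.1th percentile. *Thbs3* ranked 1041st in posterior and 2912th in anterior cells, the 95.0th and 86.1th percentile. Both mRNAs were thus present well above the detection limit (3 counts, or 0.0511 to 0.0669 CPM) at both positions, and neither position lacked either gene. The pooled SD of log2(CPM + 0.5) within a position was 0.13 for *Thbs2*, at the 50.7th percentile of the 148 genes of similar level (within 0.5 on the log2 scale). It was 0.27 for *Thbs3*, at the 82.6th percentile of 1024 such genes. *Thbs3* was therefore among the more variable genes of its level between replicates, and *Thbs2* was ordinary in this respect.

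Because the libraries sequence the 3′ end of each transcript, a count does not scale with transcript length, and the 2 genes can be set side by side within a library. The capture of each 3′ end was not measured, so that the ratio between genes is a ratio of counts and not of molecules. *Thbs2* exceeded *Thbs3* by 3.40, 2.64 and 2.54 times in posterior replicates 1, 2 and 3, against 24.4 times in each of the 2 anterior libraries. The 2 anterior libraries thus had nearly the same ratio although replicate 2 was higher than replicate 1 in both genes. Counting error of *Thbs3* alone was 2.63% and 2.24% in anterior replicates 1 and 2, and 2 libraries cannot show that the ratio is fixed. As a mean log2 ratio this was 1.50 ± 0.23 (SD, n = 3) in posterior and 4.59 ± 0.0031 (SD, n = 2) in anterior cells, a difference of -3.09. The difference stayed between -3.22 and -3.01 when any library was left out. It combines the 2 contrasts that chose the genes, so it is a description and was not tested. *Thbs3* made up 22.7%, 27.5% and 28.3% of the summed level of the 2 genes in posterior replicates 1, 2 and 3, against 3.94% and 3.93% in anterior replicates 1 and 2.

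On the CPM scale the 2 differences were of unequal size. The mean difference, posterior minus anterior, was -559.1 CPM for *Thbs2* and 75.2 CPM for *Thbs3*. The summed CPM of the 2 genes was 421 ± 37.0 CPM (SD, n = 3) in posterior and 905 ± 123 CPM (SD, n = 2) in anterior cells. The sum weights each gene by its counts, and capture may differ between them, so that it is not an amount of mRNA. In bulk libraries, fewer cells that express a gene and less mRNA per cell cannot be told apart.

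**Figure D2:**
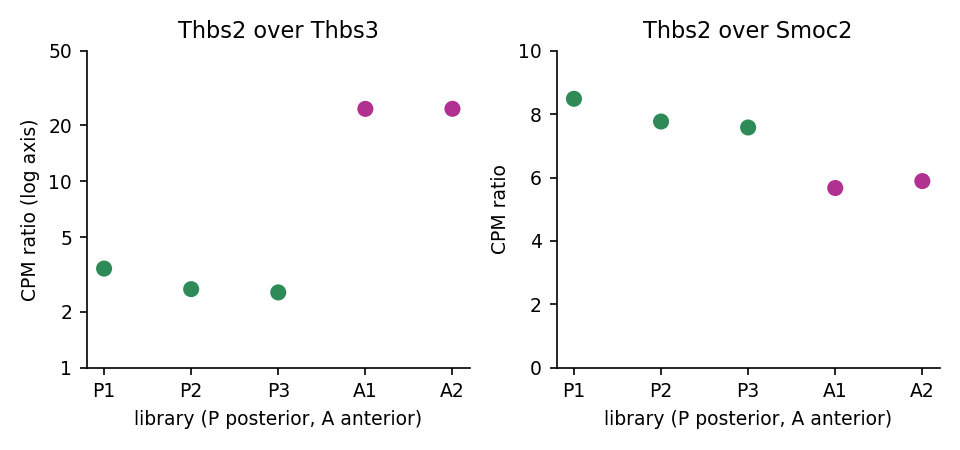
Ratio of *Thbs2* to *Thbs3* CPM (left, log axis) and of *Thbs2* to *Smoc2* CPM (right, linear axis from 0) in each library, posterior libraries P1 to P3 in green and anterior libraries A1 and A2 in magenta. The first ratio is 2.54 to 3.40 in posterior and 24.4 in anterior libraries, and the second is 7.58 to 8.48 in posterior and 5.67 to 5.89 in anterior libraries.

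The genes numbered next to each thrombospondin were examined to see whether the bias was shared by the surrounding gene models. Of the 15 identifiers on either side of *Thbs2*, 20 of 30 had no count in any library and 8 were tested. A single gene (1 of 8) passed the rate of 0.01, against 0.254% of all genes tested, and it was *Smoc2* (AMEX60DD034577), which encodes a secreted calcium-binding matricellular protein of the SPARC family. It lies 12 identifiers away, and 10 of the 11 identifiers between them had no count. In the RefSeq annotation of another axolotl assembly (UKY_AmexF1_1), *Smoc2* is the next protein-coding gene after *Thbs2*. *Smoc2* had 34.5, 42.0 and 41.1 CPM in posterior replicates 1, 2 and 3, against 138.6 and 161.8 CPM in anterior replicates 1 and 2, which gave a log2 fold change of -1.94 (SE 0.16, adjusted p = 0.000625, edgeR). It did not pass when any posterior library was left out, when only 2 to 5 of all genes tested did.

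*Thbs2* can be set against *Smoc2* within each library. *Thbs2* exceeded *Smoc2* by 8.48, 7.77 and 7.58 times in posterior replicates 1, 2 and 3, against 5.67 and 5.89 times in anterior replicates 1 and 2. The ranges did not overlap, which is common with 5 libraries: the levels of 24.1% of single genes tested did not overlap either. Whether the log2 fold changes of the 2 genes differ was not tested. The other 7 tested neighbours of *Thbs2* had log2 fold changes between -1.10 and 1.43 and adjusted p of at least 0.387. The gene at 1.43 had 72 counts in total (SE 2.78). Over all 8 tested neighbours, *Smoc2* included, the median log2 fold change was -0.68, against -0.02 over all genes tested. The unadjusted p in edgeR was under 0.05 in 2 of the 8, *Smoc2* among them. The share of all genes tested under 0.05 was not calculated, so nothing is read from this or the later counts of unadjusted p. The 4 with over 1000 counts in total had log2 fold changes between -1.94 and 0.84.

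Around *Thbs3*, no tested neighbour passed this threshold in edgeR. Of the 30 identifiers, 16 were tested and 0 passed in edgeR's quasi-likelihood test, with an unadjusted p under 0.05 in 2 of them, and 1 passed in DESeq2 (as did 1.45% of the genes that DESeq2 tested). The gene that passed in DESeq2 (AMEX60DD014838), 11 identifiers before *Thbs3*, had a log2 fold change of 0.48 (SE 0.12, adjusted p = 0.199 in edgeR). The 11 neighbours with over 1000 counts in total had log2 fold changes between -0.20 and 0.52, all smaller than that of *Thbs3*. A gene model 3 identifiers after *Thbs3* (AMEX60DD014852) was counted only in anterior libraries, with 0, 0 and 0 counts in the posterior libraries against 42 and 62 in the anterior libraries (adjusted p = 0.436 in edgeR). It carries no symbol in the study's tables and did not pass the test. In the same RefSeq annotation the protein-coding genes on either side of *Thbs3* are *Mtx1* and *Muc1*.

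**Figure D3:**
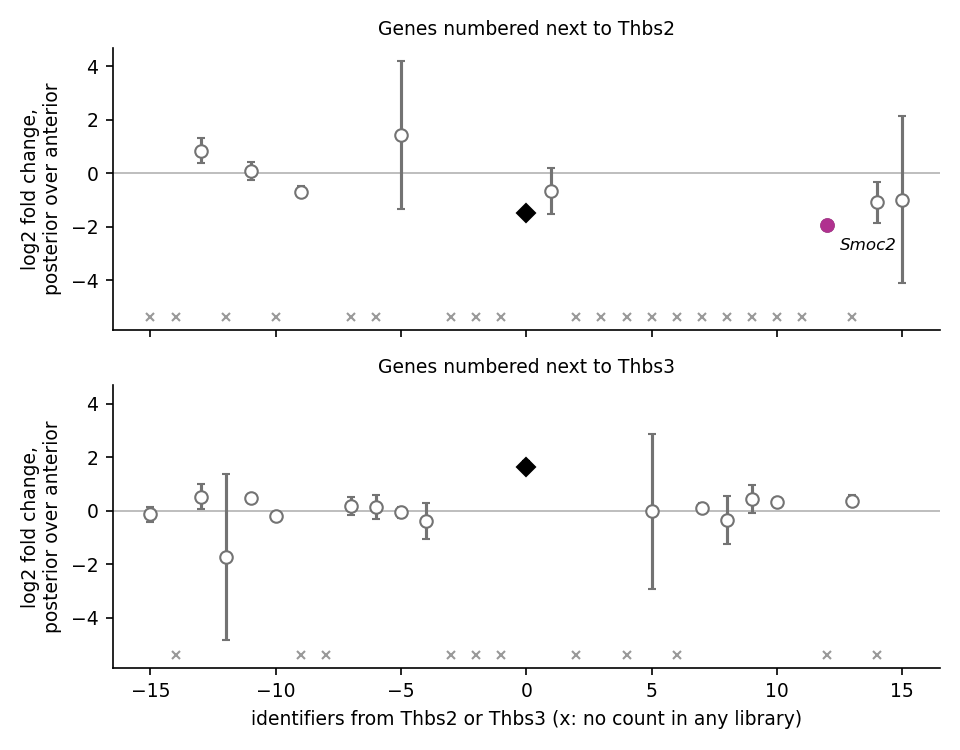
Log2 fold change, posterior over anterior, with its standard error, of the tested genes among the 15 identifiers before and after *Thbs2* (top) and *Thbs3* (bottom), against their distance in identifiers. Black diamonds are the thrombospondins, the filled magenta point is *Smoc2* at -1.94, open points did not pass the test, crosses mark identifiers with no count, and a gene with 0 counts in all posterior libraries next to *Thbs3* is not drawn.

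The type 1 repeat that *Thbs2* carries and *Thbs3* lacks is found in many other secreted proteins, 9 of which have a symbol in the study's lists. The lists that follow hold genes that the study had called on these same libraries, so that their directions are not independent evidence, and they were drawn up with those results known. Of the 9, 1 was lower in posterior cells at a false-discovery rate of 0.01 (against 0.134% of all genes tested), 0 were higher and 8 did not pass. The median log2 fold change was -1.17, also with *Adamts15* set to its lower bound, against -0.02 over all genes tested. The gene that passed was *Rspo1*, a secreted enhancer of Wnt signalling, at 101 ± 21.7 CPM (SD, n = 3) in posterior and 287 ± 10.5 CPM (SD, n = 2) in anterior cells (log2 fold change -1.50, SE 0.17, adjusted p = 0.00442). Its log2 fold change was close to that of *Thbs2*.

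Of the 8 type 1 repeat genes that did not pass, 6 had negative log2 fold changes. They were *Rspo3* (-1.84, SE 0.39), a relative of *Rspo1*, the metalloprotease *Adamts17* (-1.35, SE 0.25), the matricellular protein *Ccn1* (-1.34, SE 0.19), *Thsd4* (-1.17, SE 0.18), a protein of microfibrils, the proteoglycan-like matrix protein *Papln* (-1.03, SE 0.17) and the secreted protein *Ism1* (-0.79, SE 0.13). Their adjusted p ran from 0.0111 for *Ccn1* to 0.0909 for *Rspo3*. The aggrecan-cleaving proteases *Adamts5* and *Adamts15* had positive ones. *Adamts5* had 37.6 ± 10.5 CPM (SD, n = 3) in posterior and 11.5 ± 2.22 CPM (SD, n = 2) in anterior cells (log2 fold change 1.71, SE 0.27, adjusted p = 0.0234). *Adamts15* had 67, 89 and 109 counts in the posterior libraries against 0 and 2 in the anterior libraries (adjusted p = 0.38). Positive values were thus limited, among these 9, to 2 genes that did not pass. With DESeq2, the tool by which the study had picked them, all 9 passed, 2 as higher and 7 as lower in posterior cells, against 1.45% of all genes.

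Matricellular proteins outside the thrombospondin family also gave calls for lower posterior levels. Of 5 such genes, 2 were lower in posterior cells at the same threshold (against 0.134% of all genes tested), 0 were higher and 3 did not pass, with a median log2 fold change of -0.84. These were *Smoc2*, given above, and *Postn*. *Postn*, which encodes the matrix protein periostin, was at 4766 ± 288 CPM (SD, n = 3) in posterior and 8550 ± 651 CPM (SD, n = 2) in anterior cells (log2 fold change -0.84, SE 0.08, adjusted p = 0.00222). *Ccn1*, which is in both lists, did not pass. *Tnxb*, a tenascin that binds collagen fibrils, had a log2 fold change of 1.01 (SE 0.21, adjusted p = 0.0858). *Fbln5*, which takes part in elastic fibre assembly, had 0.95 (SE 0.15, adjusted p = 0.0202). Neither of these 2 passed in edgeR, whereas in DESeq2 all 5 did, 2 as higher and 3 as lower in posterior cells, against 1.45% of all genes. When any posterior library was left out, 0 of the 5 passed and 0 of the 9 type 1 repeat genes did, against 2 to 5 of all genes tested.

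Among 5 matrix proteases, 0 passed in edgeR, although all 5 had an unadjusted p under 0.05. All 5 passed in DESeq2 (against 1.45% of all genes), the tool that had called them in the study. Apart from the 3 *Adamts* genes given above, the urokinase gene *Plau* had a log2 fold change of -0.87 (SE 0.19, adjusted p = 0.112). The collagenase gene *Mmp1* had 20, 219 and 30 counts in the posterior libraries and 0 and 0 in the anterior libraries (adjusted p = 0.301), so that its posterior level rested largely on replicate 2. Among 7 genes of vascular growth or vessel walls, 1 was higher in posterior cells (against 0.12% of all genes tested), 0 were lower and 6 did not pass, with a median log2 fold change of 1.22. It was *Angpt1*, a ligand that stabilizes vessels, at 47.8 ± 9.49 CPM (SD, n = 3) in posterior and 12.8 ± 1.63 CPM (SD, n = 2) in anterior cells (log2 fold change 1.90, SE 0.23, adjusted p = 0.00556). It did not pass when any posterior library, or anterior replicate 1, was left out. The semaphorins *Sema3g* (1.50, SE 0.23) and *Sema3e* (1.45, SE 0.28) had the largest log2 fold changes among those that did not pass. *Rgs5*, a marker of mural cells, had -1.40 and *Angptl4* had -1.18, and neither passed.

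**Figure D4:**
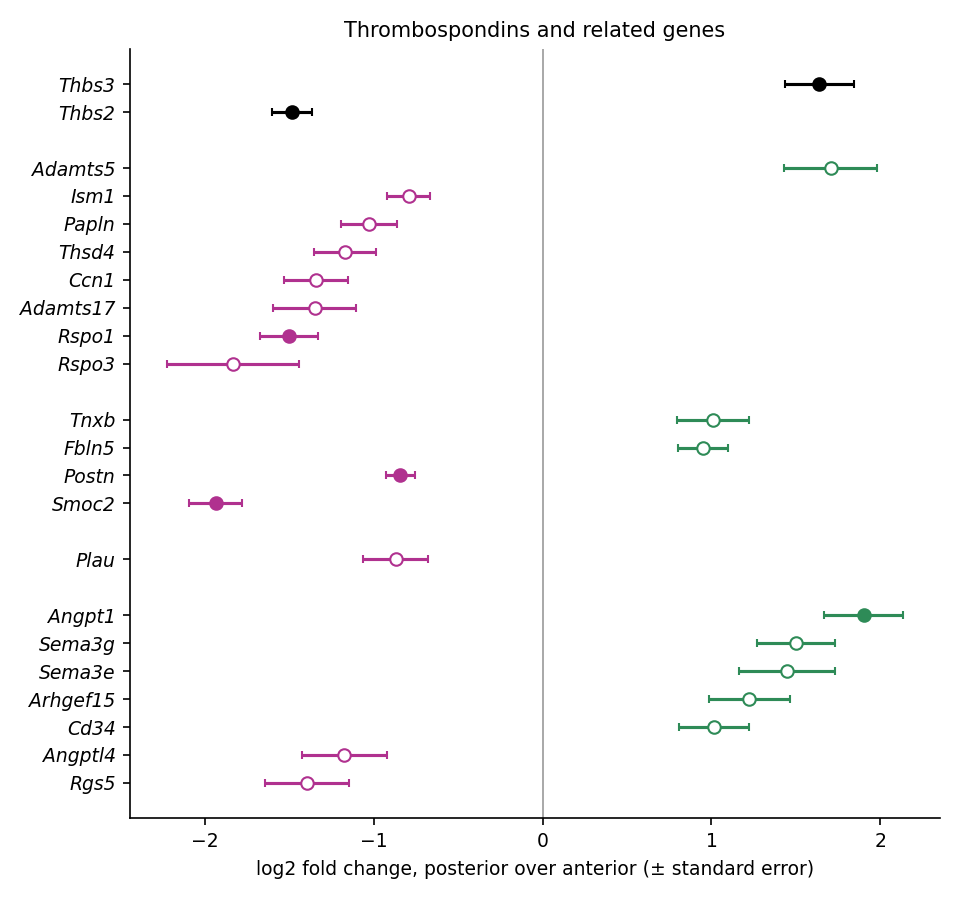
Log2 fold change, posterior over anterior, with its standard error, of *Thbs3* and *Thbs2* (black) and, below them in blocks, of type 1 repeat genes, matricellular genes, a matrix protease and vascular genes. Filled points passed a false-discovery rate of 0.01 and open points did not, green is higher and magenta lower in posterior cells, a gene in several lists is drawn once, and *Adamts15* and *Mmp1*, with at most 3 counts in each anterior library, are not drawn.

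The study placed both thrombospondins among its cell adhesion genes, of which 28 have an identifier. *Thbs3* had the most positive log2 fold change of the 28, ahead of *Icam5*, a cell adhesion molecule of the immunoglobulin family, at 1.34 (SE 0.28). *Thbs2* had the second most negative, after the ephrin receptor gene *Epha4* at -1.84 (SE 0.19), and the collagen gene *Col8a1* followed at -1.40 (SE 0.24). These ranks use the contrast that chose the 2 genes and are given as a description. The differences to the next gene are within the summed standard errors for *Thbs3* over *Icam5* and for *Thbs2* over *Col8a1*, and were not tested. By mean CPM, *Thbs2* ranked 5th and *Thbs3* 14th of the 28. Of the other 26 genes, 1 was higher in posterior cells at a false-discovery rate of 0.01 (*Fn1*, against 0.12% of all genes tested), 3 were lower (*Epha4*, *Postn* and *Col12a1*, against 0.134%) and 22 did not pass, with adjusted p from 0.0105 to 0.152. *Fn1*, which encodes fibronectin, averaged 1312 ± 27.4 CPM (SD, n = 3) in posterior and 786 ± 27.8 CPM (SD, n = 2) in anterior cells (log2 fold change 0.74, SE 0.10, adjusted p = 0.00768). *Epha4* averaged 14.7 ± 1.14 CPM (SD, n = 3) in posterior and 52.6 ± 3.39 CPM (SD, n = 2) in anterior cells, with an adjusted p of 0.00222 in edgeR. *Col12a1*, which encodes a fibril-associated collagen, averaged 1170 ± 202 CPM (SD, n = 3) in posterior and 2561 ± 380 CPM (SD, n = 2) in anterior cells, with an adjusted p of 0.00768 in edgeR. When any posterior library was left out, 0 of the 28 passed, against 2 to 5 of all genes tested, so that these calls ended with nearly all others. Over all 28 genes the median log2 fold change was -0.83, with 11 positive and 17 negative values.

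The genes with a symbol whose pattern over the 5 libraries was most like each thrombospondin were ranked by the root mean square difference of mean-centred log2(CPM + 0.5). All 275 candidates had been called by the study, so that the ranking describes likeness within that set. For *Thbs2* they included *Fam180a* (0.12), the BMP-family ligand gene *Gdf6* (0.13), *Adamts17* (0.15) and *Kansl2* (0.16), which encodes a subunit of a histone acetyltransferase complex. *Kansl2* had 2.27, 1.93 and 1.93 CPM in posterior replicates 1, 2 and 3, where the added 0.5 CPM shrinks its change. Its fitted log2 fold change was -1.91 (SE 0.44), against -1.49 for *Thbs2*. *Fam180a* came 21st among all 20874 other genes tested, so that the closer genes carried no symbol. *Fam180a* had 23.97, 31.76 and 26.58 CPM in posterior replicates 1, 2 and 3, against 59.8 and 79.0 CPM in anterior replicates 1 and 2. *Adamts17*, itself a type 1 repeat gene, shared the lower value of anterior replicate 1, with 24.6 CPM there against 38.5 CPM in anterior replicate 2. For *Thbs3* the most similar were *Arhgap20* (0.12), the growth factor gene *Fgf16* (0.12), the mitochondrial ribosomal protein gene *Mrps5* (0.17), the carboxypeptidase M gene *Cpm* (0.17) and *Scrg1* (0.20). *Mrps5* had 0.312 and 0.627 CPM and *Cpm* 0.937 and 0.803 CPM in anterior replicates 1 and 2, near the added 0.5 CPM, which shrinks their change. Their fitted log2 fold changes were 2.73 (SE 0.84) and 2.25 (SE 0.64), above that of *Thbs3*. *Arhgap20* and *Fgf16* were the 2nd and 3rd closest of all genes tested. *Fgf16* had 20.4, 24.6 and 24.2 CPM in posterior replicates 1, 2 and 3, against 7.07 and 9.14 CPM in anterior replicates 1 and 2, and like *Thbs3* and *Arhgap20* it was lowest, among posterior libraries, in replicate 1.

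**Figure D5:**
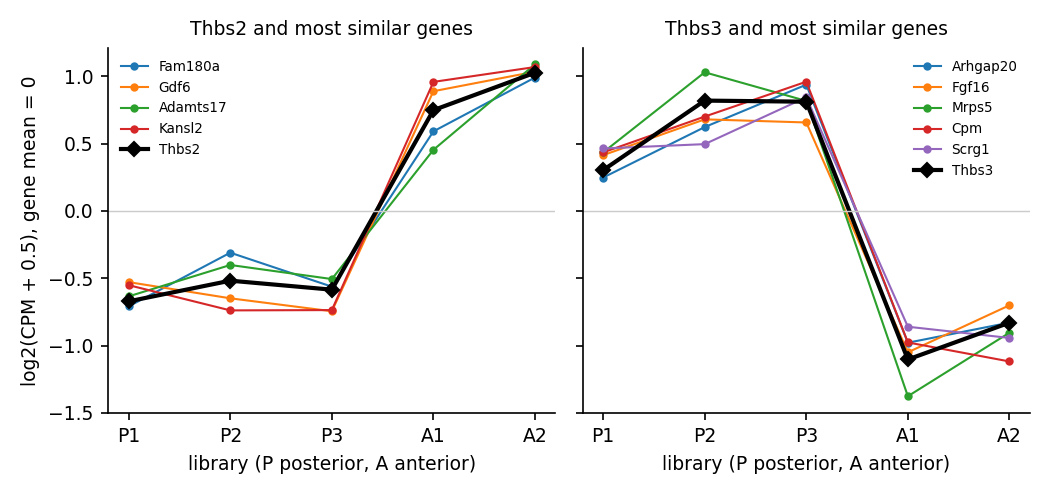
Mean-centred log2(CPM + 0.5) of *Thbs2* (left, black diamonds) and *Thbs3* (right, black diamonds) and of genes with a symbol most like each (4 for *Thbs2* and 5 for *Thbs3*), in posterior libraries P1 to P3 and anterior libraries A1 and A2. Lines only join the values of a gene, and the root mean square difference runs from 0.12 to 0.16 for *Thbs2* and from 0.12 to 0.20 for *Thbs3*.

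The 7 connective tissue markers were counted in every library, at levels between those of *Ddr2* (10.6 to 29.3 CPM) and *Postn* (4538 to 9011 CPM). Their summed level was 8769 to 9578 CPM in posterior and 12440 to 13920 CPM in anterior libraries, with none at 0. In this sum *Postn* alone averaged 4766 CPM in posterior and 8550 CPM in anterior cells, so that its difference dominates. The log2 fold changes were positive for 3 markers and negative for 4. Of the 7, *Fn1* passed as higher in posterior cells (against 0.12% of all genes tested) and *Postn* and *Col12a1* as lower (against 0.134%). Library totals were 53927341 to 59062548 counts in posterior and 44317956 to 51408176 in anterior libraries. The markers of connective tissue and of other cell types all came from genes that the study had called on these libraries. A difference between positions had thus picked each of them, and markers that the study did not call were not examined. The summed level of 6 epidermal markers was 633.9 to 877.8 CPM in posterior and 295.0 to 315.5 CPM in anterior libraries, and 3 of the 6 passed as higher in posterior cells, against 0.12% of all genes tested. The 6 are identifiers, and 2 of them carry the symbol *Krt19*. AMEX60DD038184 passed (adjusted p = 0.00169 in edgeR) and AMEX60DD038192 did not (adjusted p = 0.0721 in edgeR). Among the epidermal markers, *Krt17* was at 0 in both anterior libraries. Within posterior libraries the epidermal sum was highest in replicate 1 (877.8 CPM), where *Thbs3* was lowest (86.18 CPM). The sum of 3 immune markers was 178.4 to 203.1 CPM in posterior and 82.3 to 115.6 CPM in anterior libraries, and that of 3 muscle markers was 22.4 to 24.1 CPM in posterior and 3.32 to 6.42 CPM in anterior libraries. For both lists 0 markers passed in edgeR, whereas all 3 of each had an unadjusted p under 0.05 and passed in DESeq2, against 1.45% of all genes. The 2 mural and endothelial markers went opposite ways, with log2 fold changes of -1.40 (SE 0.25) for *Rgs5* and 1.22 (SE 0.24) for *Arhgef15*. Their sum hides this: it overlapped between positions, at 37.5 to 45.4 CPM in posterior and 38.0 to 50.9 CPM in anterior libraries. In edgeR 0 of the 2 passed, with both under an unadjusted p of 0.05 and both passing in DESeq2 (against 1.45% of all genes).

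Of the immediate early genes, only *Jun*, *Egr4* and *Ccn1*, which the study had called on these libraries, were examined. These genes respond to dissociation among other stimuli and, like *Thbs2*, had their higher level in anterior libraries. Their sum was 1487 to 1911 CPM in posterior and 2660 to 4061 CPM in anterior libraries, and 0 of the 3 passed in edgeR, with all 3 under an unadjusted p of 0.05 and all 3 passing in DESeq2 (against 1.45% of all genes). Between the anterior libraries the order was reversed: the sum was 4061 CPM in replicate 1 and 2660 CPM in replicate 2, whereas *Thbs2* was 785.8 CPM in replicate 1 and 952.9 CPM in replicate 2. The part of epidermal, immune, muscle or immediate early transcripts in the levels of *Thbs2* and *Thbs3* was not tested.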

How the data were processed

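The authors prepared QuantSeq 3′ libraries from 20.25 ng of RNA, used Trimmomatic 0.39 for trimming (reads under 40 bases dropped), HISAT2 for mapping to AmexG_v6.0-DD and featureCounts for counting reads per gene. HISAT2 reported up to 5 alignments per read. Versions of HISAT2 and featureCounts, and the featureCounts settings for strand and for reads with several alignments, are not given in the sources used here, which leaves genes with a near-identical copy uncertain. Only the raw counts that the authors deposited were used, and each library column was matched to its sample by the number in the label. Genes were filtered with filterByExpr, scaled by TMM and fitted in edgeR 4.0.16 (R 4.3.3; glmQLFit, glmQLFTest) over all 5 libraries with position as the term, and adjusted p-values are Benjamini-Hochberg values across 20875 genes. The standard error is the absolute log2 fold change divided by the square root of F. P-values measure the spread between pools of animals. Intervals and limits on counts cover counting error only, since no molecular identifiers are described.

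The script was tested on simulated counts with changed genes of known fold. Symbols come from the study's lists of differentially expressed genes, which name 283 of 306 identifiers, and RefSeq was used only for gene order. Named genes were the 2 thrombospondins, the 5 genes most like each, and all type 1 repeat and matricellular genes. From other lists, those that passed and up to 2 that did not were named. In the vascular list *Rgs5* and *Angptl4*, the only genes there with negative log2 fold changes, were named in addition. Neighbours were named if they passed or carry a symbol. Of the genes most like *Thbs2*, 1 is not reported here. AMEX60DD014838 and AMEX60DD014852 were chosen after their values were seen. The members and lists were chosen with earlier results of these data known. Alternatives were DESeq2 1.42.0, limma-voom (limma 3.58.1), DESeq2 size factors, library totals, no filter, at least 100 counts, robust dispersion estimates, a replicate block, a rate of 0.05, a pseudocount of 1 and each library left out.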

Additional observations from a re-analysis of the deposited data

How the results depend on the processing

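The log2 fold changes of *Thbs2* and *Thbs3* kept their direction under each alternative: they ran from -1.49 to -1.47 and from 1.54 to 1.66, and with each library left out from -1.62 to -1.34 and from 1.50 to 1.80. The log2 ratio of *Thbs2* to *Thbs3*, posterior minus anterior, was run with 2 alternatives only, DESeq2 size factors and a pseudocount of 1. It ran from -3.09 to -3.08, and with each library left out from -3.22 to -3.01. A size factor cancels within a library apart from the added 0.5 CPM, so that this alternative could hardly move the ratio. The fold changes and the ratio rest on the contrast that chose the 2 genes, so these ranges are a description. With an anterior library left out, the remaining one is assumed to vary like the posterior libraries.

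Counts of genes past the threshold depended on the test. DESeq2 called 300 genes, 9 type 1 repeat, 5 matricellular, 5 protease, 7 vascular and 27 adhesion genes, and 1 neighbour of *Thbs3*. Without a filter these counts were 337, 8, 5, 3, 7 and 27 in the same order of lists, and with the robust fit 103, 6, 4, 1, 2 and 11. At a rate of 0.05 they were 127, 7, 4, 2, 3 and 11. Limma-voom called 74 of all 20875 genes tested, among them 4 type 1 repeat and 10 adhesion genes. A minimum of 100 counts gave 60 of 18553 genes tested, among them 2 type 1 repeat genes. With the replicate block, 130 genes, 4 type 1 repeat, 1 protease, 2 vascular and 13 adhesion genes passed. Whether a posterior and an anterior library of the same replicate number shared animals is not given in the sources used here. Across 20875 genes, which are not independent, the replicate 2 minus replicate 1 differences of the 2 positions had r = -0.036. A single correlation cannot settle whether the libraries were paired. With each library left out, the counts ranged from 2 to 62 for all genes, 0 to 2 for type 1 repeat, 0 to 3 for matricellular, 0 to 1 for vascular and 0 to 6 for adhesion genes, and 0 to 1 for neighbours of *Thbs2*. Each lowest count came from leaving out a posterior library, and for vascular genes also from leaving out anterior replicate 1. The cause of these differences was not tested.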
